A study of Mus musculus with 18 samples.

Results

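The contacts of the Il4 gene were compared between Th2-polarised CD4+ T cells lacking Stat6 and Th1 cells, on 4 of the 18 arrays of the series: 2 of Stat6 knockout cells and 2 of Th1 cells, chosen by their titles. All are labelled primary mouse CD4+ T cells. The Stat6 knockout cells were treated as Th2 cells, and the Th1 cells were polarised to Th1 with no genotype change named. The 2 Il4 arrays of Th2 cells with no genotype change named and the 2 of naive cells are used for reference and for the shared estimate of spread. Strain, age, sex and the kind of Stat6 allele are not given in the sources used here. The series' design text counts individual biological replicates and 1 array from a pool of replicates that it does not identify. The arrays read contacts and not expression, so neither the loss of Stat6 nor the identity of the polarised cells could be checked in them.

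Il4 encodes interleukin 4, the cytokine that defines Th2 cells and drives naive CD4+ T cells into that fate. Interleukin 4 signals through its receptor to Stat6, a transcription factor that enters the nucleus and induces Gata3. Stat6 also opens the Th2 cytokine genes Il4, Il13 and Il5, which lie near each other. In Th1 cells, which make interferon gamma under T-bet, Il4 is silent. Chromosome conformation capture on a chip, or 4C, ligates DNA that lies close together in the nucleus and reads what was joined to 1 bait, here Il4. The comparison asked whether Il4 in Th2 cells without Stat6 has the contacts that the silent gene has in Th1 cells.

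The promoter of the bait gene is shown because Stat6 acts on this gene in wild-type Th2 cells. It is from RefSeq on GRCm38.p6, chr11:53618616-53618915, minus strand, which is another build than that of the arrays. Its 300 bases span the upstream one of the 2 listed starts of Il4, 5′ to 3′, and capitals mark the match to TTCNNNNGAA, the motif of Stat6 dimers.

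Il4 promoter: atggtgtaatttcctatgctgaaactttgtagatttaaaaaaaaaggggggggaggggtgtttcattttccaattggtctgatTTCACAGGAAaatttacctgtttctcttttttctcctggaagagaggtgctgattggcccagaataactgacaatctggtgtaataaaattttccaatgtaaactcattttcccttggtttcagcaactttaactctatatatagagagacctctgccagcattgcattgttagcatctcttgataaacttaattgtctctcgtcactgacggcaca

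The single match, TTCACAGGAA, begins 167 bases before the start. TTCNNNNGAA reads the same on both strands and was found in 2284 of 32851 listed promoters of that length (6.95%). The shorter form TTCNNNGAA, typical of other STAT proteins, has no match in this window and occurs in 8.30% of promoters. The promoters of Il13 and Il5, the neighbouring Th2 cytokine genes, hold neither motif in the same window. A match is a description of the letters only, and the arrays do not measure Stat6 binding.

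Values are log2 ratios of 4C DNA over genomic DNA, centred on the probes off chromosome 11 and averaged in bins of 500 kb. Each array held 384942 probes, and the small number of arrays limits the precision. The highest bin of every Il4 array lay on chromosome 11, at chr11:53000001-53500000 in 3 arrays and in the next bin in 5. Il4 lies on that chromosome, which fits the labelled bait. No position of Il4 in the arrays' build was available, so the bait bin was taken as the highest on average over these arrays. That the signal peaks at the bait bin is therefore no check of the label. Coordinates of bins are those of the arrays, read as build mm8, and genes are placed in cytogenetic bands only, so a gene named here may lie elsewhere in its band than the bin described. The Stat6 knockout arrays have serial numbers of a series of their own and the Th1 arrays of another. Array batch, genotype and polarising condition therefore cannot be told apart. Off chromosome 11, over 4788 bins, 2 arrays stood apart: knockout replicate 2, with r of 0.420 to its replicate, and naive replicate 1, which enters only the reference values and the shared spread, with 0.365 to its own. The Th1 replicates had 0.733. Without naive replicate 1, and without knockout replicate 2, limma also called 0 bins.

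Along chromosome 11 both Stat6 knockout arrays lay at the level of the first Th1 array and below the second. The mean over chromosome 11 outside the bait was 0.35 and 0.33 in the knockout arrays. It was 0.34 and 0.64 in the Th1 arrays, 0.18 and 0.18 in the Th2 arrays, and 0.60 and 0.73 in the naive arrays. The knockout pair was thus closer together than the Th1 pair, above both Th2 arrays and below both naive arrays. Bin by bin, limma called 0 of 5021 bins between knockout and Th1 cells at an adjusted p of 0.05 (0% called), with 309 bins at an unadjusted p under 0.05 and a smallest adjusted p of 0.194. Leaving out Th1 replicate 1 sets the knockout pair against 1 Th1 array, the higher one, with the spread taken from the other groups. The median difference on chromosome 11 was then -0.26, and it was 0.01 against the other Th1 array alone.

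**Figure D1:**
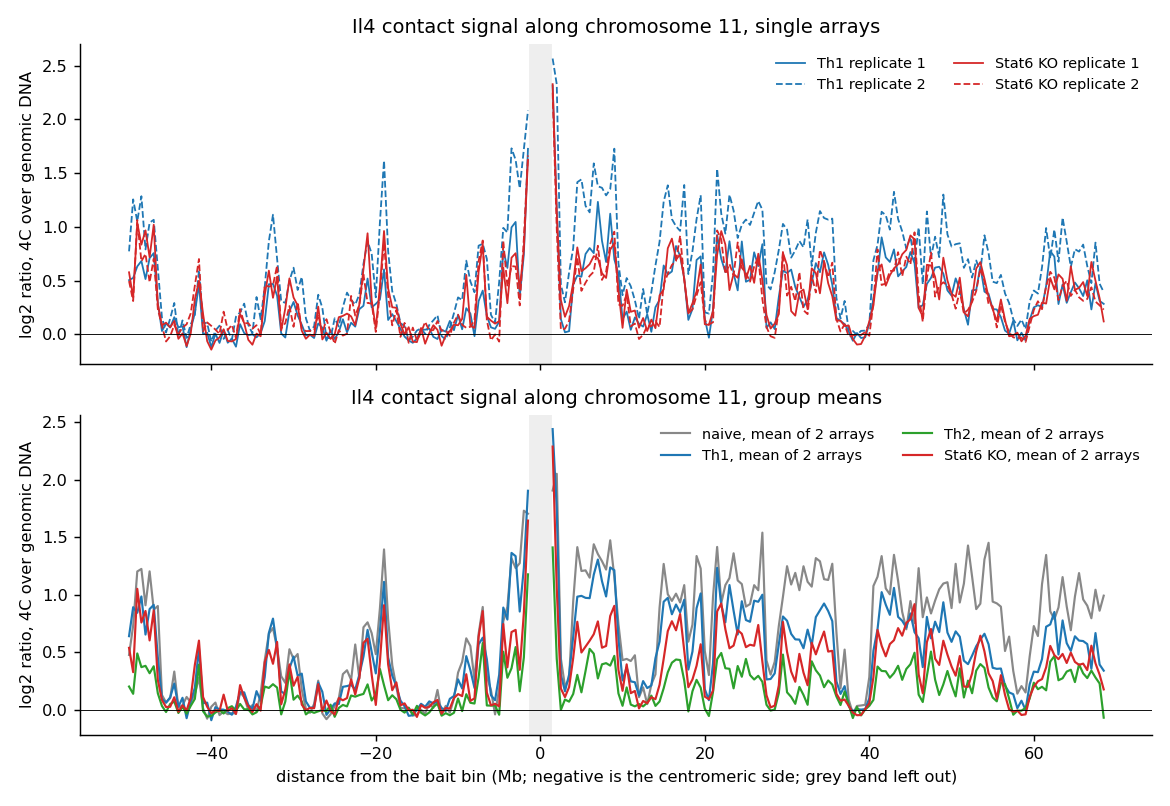
Mean log2 ratio of 4C over genomic DNA in 500-kb bins of chromosome 11 (y) against distance from the bait bin in Mb (x), for the 4 single Th1 and Stat6 KO arrays above and for the mean of each group of 2 arrays below. Both Stat6 KO lines follow Th1 replicate 1, Th1 replicate 2 runs above them, and the peaks stand at the same distances in all 4 arrays.

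On chromosome 11 the differences leaned to lower signal in the knockout without any bin passing the test. Of 233 bins there, 191 were lower and 42 higher than in Th1 cells, with a median difference of -0.12 and a range of -0.69 to 0.24. The 95% interval of the difference lay within 0.5 of 0 in 162 bins (69.5%), and reached further in the other bins. Both knockout arrays lay below both Th1 arrays in 74 bins (31.8%, against 16.4% of all bins) and above both in 4 bins (1.72%, against 19.2% of all bins). They lay inside the range of the Th1 pair in 61 of these 233 bins, against 521 of all 5021 bins. The knockout mean was nearer to Th1 replicate 1 than to replicate 2 in 186 of 233 bins. Without Th1 replicate 2 the median difference was 0.01 with 113 bins lower, and without Th1 replicate 1 it was -0.26 with 211 bins lower.

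**Figure D2:**
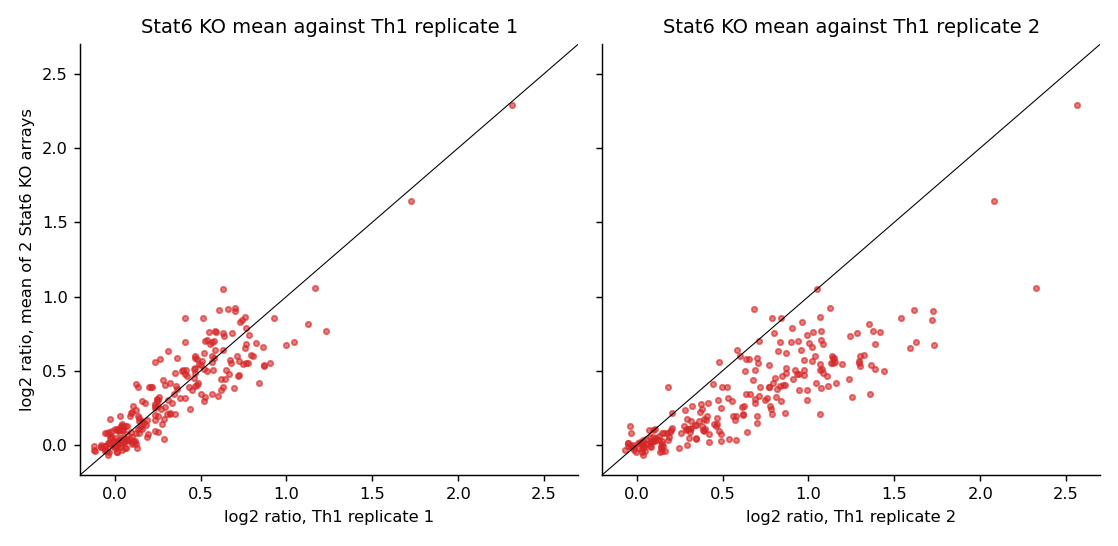
Each point is 1 of 233 bins of chromosome 11, with the mean of both Stat6 KO arrays (y, log2 ratio) against Th1 replicate 1 (left) or Th1 replicate 2 (right), and a line of equal values. The points lie around the line on the left and mostly below it on the right, and the knockout mean was nearer to replicate 1 in 186 bins.

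At the bait itself the knockout signal was lower than in both Th1 arrays. The window chr11:52000001-55000000, which surrounds the bait, measured 2.35 and 2.13 in the knockout arrays and 2.59 and 2.84 in the Th1 arrays. The difference was -0.48 (95% interval -0.69 to -0.26, not adjusted over windows), and the groups did not overlap. The Th2 arrays measured 1.55 and 1.74 and the naive arrays 2.22 and 2.15 there, so over this window the knockout lay near the naive level. In chr11:53000001-53500000 alone the knockout read 3.14 and 2.76, above naive cells at 2.74 and 2.59. There it overlapped the Th2 arrays at 2.17 and 2.92. In RefSeq's gene order Il4 is followed by Il13, the DNA repair gene Rad50, Il5 and Irf1. In windows of 100 kb over this region the difference from Th1 was below 0 in 25 of 25, from -1.05 to -0.20. Both knockout arrays were below both Th1 arrays in 13 of these and above both Th2 arrays in 14. The 5 bins from chr11:52000001 to 54500000 were left out of the bin tests, and this window has only its fitted interval. That interval held 0 under 5 of 22 alternatives, among them trend and robust eBayes (-1.20 to 0.25), scaling by spread (-1.56 to 0.34), extreme probes left out (difference -0.28) and scaling on the signal 1 to 2 Mb from the bait (difference -0.07, -0.38 to 0.24). The probes of that last scaling lie partly inside this window, so it is not independent of the window's own signal. After quantile normalization the difference was -0.28 (-0.53 to -0.03).

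Beyond the bait the mean signal fell in both groups out to 10 to 20 Mb and was higher again farther out. From 1 to 2 Mb the knockout arrays read 1.86 and 1.88 and the Th1 arrays 1.97 and 2.44, against 1.22 and 1.10 in Th2 cells and 1.91 and 1.96 in naive cells. From 2 to 5 Mb the knockout values were 0.47 and 0.41 and the Th1 values 0.50 and 1.06. From 5 to 10 Mb they were 0.44 and 0.38 against 0.46 and 0.87. In these classes the knockout was lower than either Th1 array, but its gap to Th1 replicate 1 was smaller than the gap between the Th1 arrays. From 10 to 20 Mb the knockout arrays (0.24 and 0.21) fell around Th1 replicate 1 (0.21) and below replicate 2 (0.50). From 20 to 40 Mb both knockout arrays read 0.26 and 0.27 against 0.25 and 0.53, and beyond 40 Mb 0.38 and 0.35 against 0.36 and 0.63. The mean differences from Th1 ran from -0.34 next to the bait to -0.12 at 20 to 40 Mb.

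Both sides of the bait contributed, with larger differences on the telomeric side in most classes. At 5 to 10 Mb the telomeric side differed by -0.41 and the centromeric side by -0.10, and at 20 to 40 Mb by -0.20 and -0.04. The class from 2 to 5 Mb ran the other way, with -0.48 on the centromeric and -0.21 on the telomeric side. These sides were not tested against each other.

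Levels of the main contact domains were taken in 10 windows along the chromosome, and the knockout mean was below the Th1 mean in 10 of 10. In the distal flank, chr11:55000001-63000000, the knockout arrays read 0.60 and 0.52 and the Th1 arrays 0.65 and 1.19, a difference of -0.36 (95% interval -0.65 to -0.06). That interval held 0 under 9 of 22 alternatives, among them the median of probes (-0.35 to 0.16), scaling by spread (-0.75 to 0.05) and trend and robust eBayes (-0.80 to 0.08). In the proximal flank, chr11:45000001-52000000, they read 0.50 and 0.49 against 0.52 and 0.99 (-0.25, -0.52 to 0.01). In both flanks the knockout arrays sat just under Th1 replicate 1. In chr11:77000001-89000000, which spans bands 11qB5 and 11qC with the chemokine genes Ccl3, Ccl4 and Ccl5, the values were 0.44 and 0.45 against 0.49 and 0.91 (-0.26, -0.50 to -0.01, with 0 held under 14 of 22 alternatives). In chr11:94000001-101000000, in band 11qD, which holds Tbx21, the gene of T-bet, they were 0.60 and 0.59 against 0.59 and 0.93 (-0.17, -0.38 to 0.05). Farther toward the telomere, chr11:104000001-109000000 read 0.36 and 0.32 against 0.34 and 0.66, and chr11:117000001-122000000 read 0.44 and 0.35 against 0.38 and 0.68. In these 3 windows the knockout values overlapped the Th1 range. So they did in chr11:67000001-72000000, in 11qB3, which holds the tumour suppressor gene Trp53, and 11qB4, at 0.49 and 0.43 against 0.47 and 0.99. On the centromeric side chr11:3000001-10000000 read 0.43 and 0.35 against 0.36 and 0.61, and chr11:30000001-37000000 read 0.35 and 0.28 against 0.23 and 0.56, again with overlap. Without Th1 replicate 2, which leaves 1 Th1 array, only 5 of the 10 windows were lower, with differences from -0.35 at the bait to 0.09. Without Th1 replicate 1, with the other Th1 array left, all 10 were lower, by 0.22 to 0.63.

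**Figure D3:**
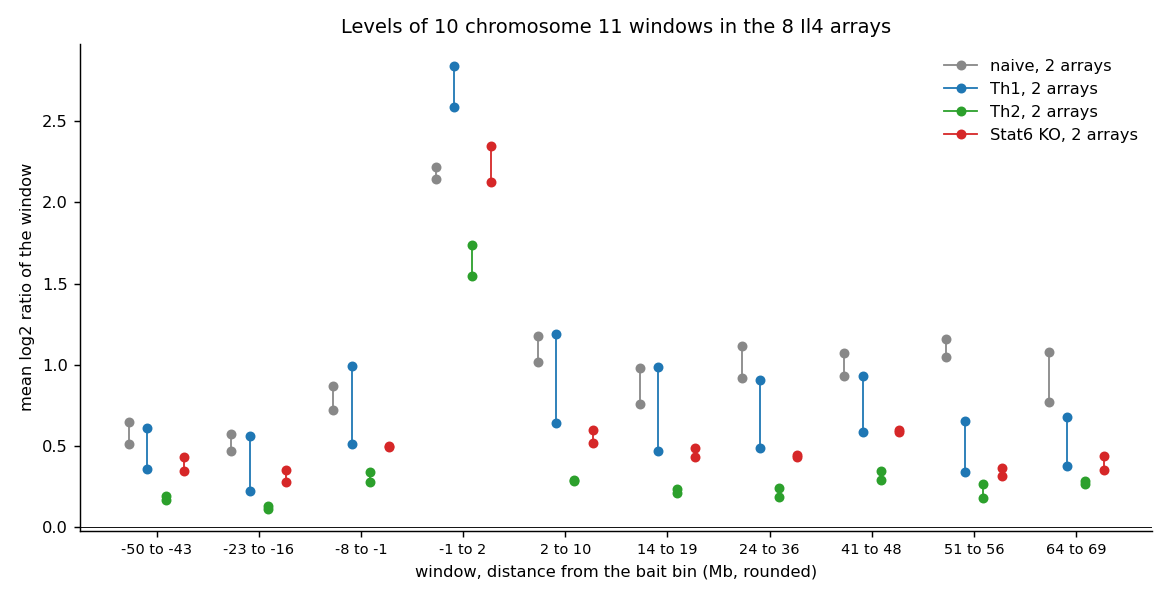
Mean log2 ratio (y) of 10 windows of chromosome 11, ordered by distance from the bait bin in Mb (x), with 1 point for each of the 8 Il4 arrays and a line joining the 2 arrays of a group. The Stat6 KO points sit near the lower Th1 point in most windows, above it in some and below it in others. They lie clearly below it at the bait, and above both Th2 points in all 10.

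The same windows set beside Th2 cells put the knockout higher, by 0.12 to 0.59. These comparisons share arrays, so their values are given side by side and were not related to each other. The median difference over the bins of chromosome 11 was 0.13 for knockout minus Th2, -0.27 for Th2 minus Th1 and -0.12 for knockout minus Th1. limma called 1 bin between knockout and Th2 cells (0.0199% of bins) and 11 between Th2 and Th1 cells (0.219%), at adjusted p under 0.05. The 11 bins were all lower in Th2 cells and on chromosome 11. Both knockout arrays lay above both Th2 arrays in 138 bins of chromosome 11 (59.2%, against 33.7% of all bins). They lay below both in 7 of 233 bins there, against 366 of all 5021 bins.

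The 1 bin that rose against Th2 cells, chr11:54500001-55000000, lies in 11qB1.3 beyond the bins left out around the bait. It measured 2.33 and 2.25 in the knockout arrays, 2.31 and 2.57 in the Th1 arrays, 1.56 and 1.26 in the Th2 arrays, and 1.83 and 1.99 in the naive arrays. The knockout values thus overlapped those of Th1 and stood clear of those of Th2. The difference from Th2 was 0.88 (limma, adjusted p = 0.0259), and that from Th1 was -0.15 (95% interval -0.39 to 0.08, adjusted p = 0.897).

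In the 11 bins called lower in Th2 than in Th1 cells, both knockout arrays were above both Th2 arrays in 11 and below both Th1 arrays in 10. Over all bins of chromosome 11 the shares were 59.2% and 31.8%. The choice of these bins used the Th1 and Th2 arrays, so the intermediate place of the knockout is a description. The knockout minus Th1 differences there ran from -0.58 to -0.15 (median -0.28), and the knockout minus Th2 differences from 0.17 to 0.88 (median 0.37). At chr11:87500001-88000000 in 11qC, for example, the knockout arrays read 0.68 and 0.68, the Th1 arrays 0.76 and 1.08, and the Th2 arrays 0.21 and 0.18.

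The bins with the smallest p against Th1 did not pass the test. The lowest of these was chr11:80000001-80500000 in 11qB5, with 0.50 and 0.33 in the knockout arrays and 0.84 and 1.16 in the Th1 arrays (difference -0.58, limma adjusted p = 0.225). Next came chr11:94500001-95000000 in 11qD, with 0.65 and 0.46 against 0.90 and 1.14 (-0.47, adjusted p = 0.352), and chr11:60000001-60500000 in 11qB2, with 0.71 and 0.82 against 1.23 and 1.38 (-0.54, adjusted p = 0.392). In these 3 bins both knockout arrays lay below both Th1 arrays. With 1 array left out at a time, which leaves 1 array in its group, the differences stayed below 0. They ran from -0.74 to -0.42, from -0.59 to -0.35 and from -0.61 to -0.47, in the same order. The 3 bins with the smallest p in the other direction lay off chromosome 11. At chr8:84500001-85000000 the knockout arrays read 0.33 and 0.31 against 0.01 and 0.03 (0.30, adjusted p = 0.392), and the Th2 arrays were near 0 too (0.03 and -0.07). The other two lie on the chromosome numbered 20 in the files, whose probe range matches the X chromosome. There chr20:52000001-52500000 read 0.35 and 0.34 against 0.00 and -0.03 (0.36, adjusted p = 0.194), and chr20:149500001-150000000 read 0.26 and 0.27 against -0.13 and -0.07 (0.36, adjusted p = 0.352).

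Called contacts of the knockout lay between those of the Th1 arrays or below both, depending on the share of probes used. A bin was called a contact where the array's highest 5% of probes were over-represented in it (one-sided binomial test, adjusted p under 0.05) in both arrays of a group. On chromosome 11 this gave 95 of 233 bins in the knockout (40.8%), 83 in Th1 cells (35.6%), 17 in Th2 cells (7.3%) and 158 in naive cells (67.8%). Over all 5021 bins the shares were 1.97%, 1.67%, 0.378% and 3.31%. By array the counts were 102 and 117 in the knockout, 83 and 149 in Th1, 68 and 23 in Th2, and 161 and 174 in naive cells. At this share the Th1 arrays lay on either side of the knockout arrays, and the Th2 count was limited by its second array. With the highest 2% of probes the knockout arrays had 69 and 68 contact bins, below both Th1 arrays with 86 and 157, and the pairs had 54 against 85.

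Knockout and Th1 cells shared 73 contact bins, which is 88.0% of the Th1 bins and 76.8% of the knockout bins. Knockout and Th2 cells shared 16 (94.1% of the Th2 bins, 16.8% of the knockout bins). Another 60 bins were contacts in knockout and Th1 cells but were not called in both Th2 arrays. This count depends on Th2 replicate 2, which called only 23 bins. Th2 replicate 1 alone shared 63 and 65 of its 68 bins with knockout replicates 1 and 2. It shared 54 with Th1 replicate 1 and 67 with Th1 replicate 2, the array with more calls. All 95 knockout bins and all 83 Th1 bins on chromosome 11 were contacts in naive cells too. The 22 knockout bins missing from the Th1 list were all called in Th1 replicate 2 and in 0 cases in replicate 1, so the list difference lies in 1 Th1 array. Of the 10 Th1 bins missing from the knockout list, 1 was called in knockout replicate 1, 7 in replicate 2 and 2 in neither. Taken array by array, replicate 1 of the knockout shared 74 of the 83 bins of Th1 replicate 1 and 101 of its own 102 with Th1 replicate 2. With the highest 2% of probes the share was 57.6% of the Th1 bins and 90.7% of the knockout bins, and with the highest 10% it was 89.5% and 73.1%.

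**Figure D4:**
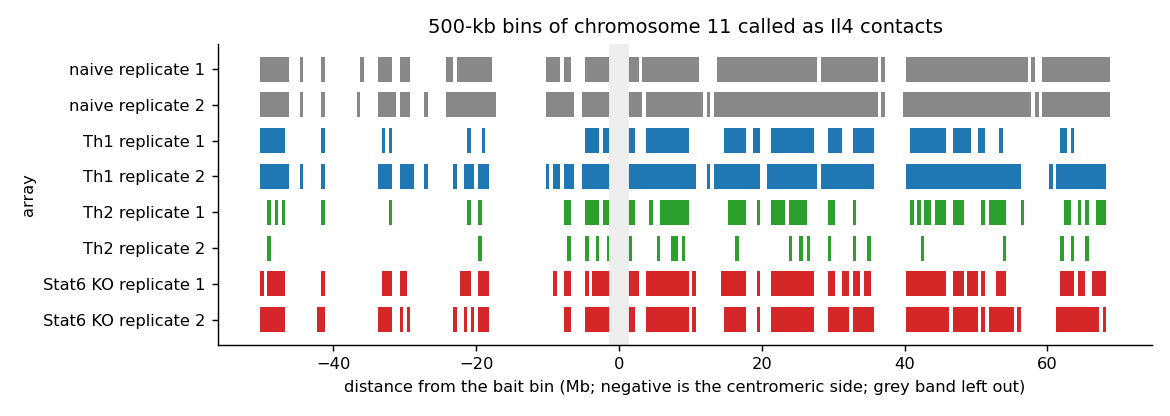
Bins of 500 kb on chromosome 11 called as Il4 contacts in each of the 8 arrays (rows), against distance from the bait bin in Mb (x). The knockout rows hold 102 and 117 bins and the Th1 rows 83 and 149, and the longest knockout blocks stand where both Th1 rows have blocks.

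The 2 longest runs of adjacent Th1 contact bins had the same ends in knockout and Th1 cells. These runs were chosen after their values were seen. chr11:57000001-63000000, mostly in 11qB2, was a run of 12 bins in both, with a mean of 0.64 and 0.60 in the knockout arrays, 0.75 and 1.28 in Th1, and 0.34 and 0.32 in Th2. chr11:74500001-80500000 was also a run of 12 bins in both, at 0.64 and 0.65 against 0.68 and 1.13. chr11:68000001-71000000, in bands 11qB3 and 11qB4, was a run of 6 bins in both, at 0.68 and 0.63 against 0.64 and 1.18. The run in 11qD covered 10 bins in Th1 cells, chr11:94000001-99000000, and 11 in the knockout, which began 1 bin earlier. In Th2 cells these runs held 3, 2, 1 and 0 bins called in both arrays. That count was limited by Th2 replicate 2, with 23 called bins on chromosome 11 against 68 in replicate 1. Th2 replicate 1 alone was called in most bins of each run. A Th1 run of 6 bins, chr11:86000001-89000000, was broken in the knockout, where 4 of the 6 were called. In the 3 runs with values given, the knockout arrays lay near Th1 replicate 1 and below replicate 2.

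Likeness of whole profiles did not separate Th1 from Th2 as the nearer neighbour of the knockout. Over the bins of chromosome 11 the mean Pearson r of knockout with Th1 arrays was 0.860 (4 pairs, 0.826 to 0.882), with Th2 arrays 0.858 (0.836 to 0.887) and with naive arrays 0.746. The replicates correlated at 0.907 in the knockout, 0.893 in Th1 and 0.830 in Th2 cells. All arrays share the fall of signal with distance, and after removing it the values were 0.793 with Th1, 0.796 with Th2 and 0.687 with naive. Other measures leaned different ways. Between group means r was 0.901 with Th1 and 0.920 with Th2, and 0.851 and 0.886 after removing the fall. The mean Spearman correlation over the single-array pairs was 0.861 with Th1 and 0.834 with Th2. These correlations are over bins of a chromosome, which are not independent.

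In cytogenetic bands the values of chromosome 11 again leaned lower in the knockout. limma called 0 of 401 bands between knockout and Th1 cells (0% called), with 21 at an unadjusted p under 0.05, and 17 of 18 bands of chromosome 11 were lower in the knockout. 11qB1.3 holds the Th2 cytokine genes with Irf1, an interferon-response factor, and Tcf7, the gene of TCF1. Its value leaves out the probes from chr11:52000001 to 54500000 and so does not cover the bait itself. The rest of the band read 0.77 and 0.66 in the knockout and 0.76 and 1.39 in Th1 cells (-0.35, 95% interval -0.77 to 0.06, adjusted p = 0.751). 11qB2 read 0.69 and 0.72 against 0.91 and 1.41 (-0.45, -0.78 to -0.12, adjusted p = 0.695), and 11qB1.2 read 0.38 and 0.39 against 0.53 and 0.82 (-0.29, adjusted p = 0.695). In these 2 bands the groups did not overlap, which held for 51 of 401 bands in this direction (12.7%) and for 88 in the other (21.9%). 11qD, with Tbx21, Stat3, Stat5a, Stat5b and the lymph node homing receptor gene Ccr7, read 0.40 and 0.39 against 0.41 and 0.66. 11qE2, with Socs3, an inhibitor of cytokine signalling, read 0.29 and 0.26 against 0.29 and 0.55. With 1 array left out at a time, the difference in 11qB1.3 ran from -0.67 to -0.04 and that in 11qB2 from -0.70 to -0.20. The largest came without Th1 replicate 1, which leaves 1 Th1 array.

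Gene lists were placed in the same bands. Of 41 T cell genes of chromosome 11, 40 could be placed, in 10 bands, with 0 called in either direction, a median of -0.14 and both knockout arrays below both Th1 arrays for 11 genes. All lie on chromosome 11, whose 18 bands had a median of -0.14 as well, with both knockout arrays below both Th1 arrays in 6. The median over all 401 bands was 0.00. Of 16 genes of interleukin 4 and Stat6 signalling, 15 could be placed, 0 were called, and their median was 0.00 with a range of -0.14 to 0.11. Stat6 itself, in 10qD3, read 0.08 and 0.06 in the knockout and 0.05 and 0.07 in Th1 cells, and Il4ra, the receptor gene in 7qF3, read 0.12 and 0.12 against 0.09 and 0.12. Gata3, the Th2 master regulator gene in 2qA1, read 0.08 and 0.13 against 0.04 and 0.05. These levels on other chromosomes are near 0, the level of the median probe off chromosome 11. The Th2 programme genes had 14 of 20 placed and a median of -0.05, and the Th1 programme genes 19 of 20 and -0.01, with 0 called in both. The naive and pan-T list had 15 of 17 genes placed and a median of -0.02, the Th17 and Treg list 12 of 13 and 0.01, the housekeeping list 9 of 12 and -0.02, and the neuronal list 10 of 14 and -0.01, also with 0 called. The 16 genes of the Th2 cytokine locus and its neighbours all fall in 11qB1.3 and share its value.

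Off chromosome 11 the level of signal in the knockout and in Th1 cells was close to 0 on every chromosome. The median difference over 4788 bins was 0.01, and 99.8% of the 95% intervals lay within 0.5 of 0. With chromosome 21 left out, which held 5 bins, the means of whole chromosomes lay between -0.01 and 0.12 in the 4 arrays, except for the chromosome numbered 20 in the files, where knockout replicate 2 read 0.18.

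**Figure D5:**
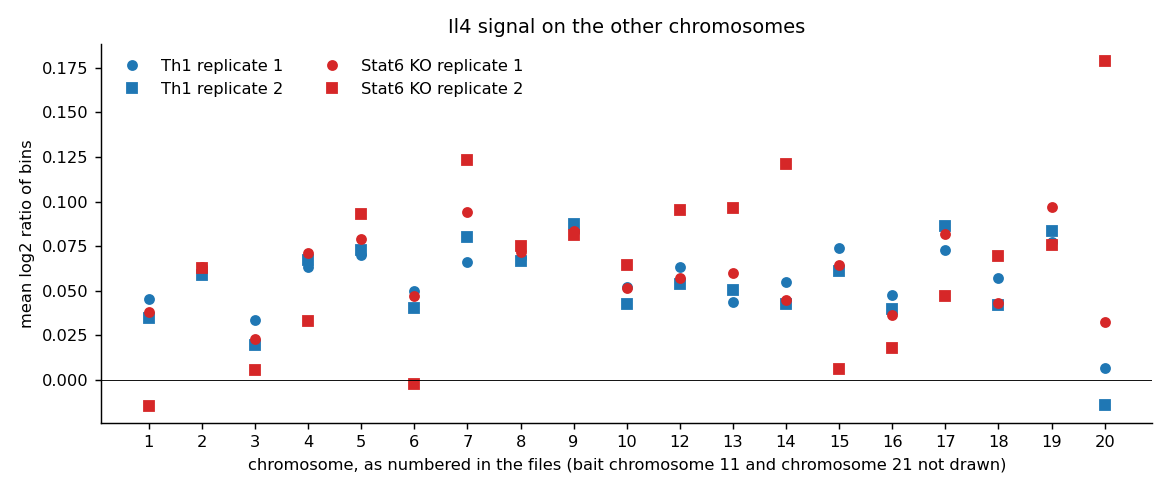
Mean log2 ratio over the bins of each chromosome other than 11 and 21 (y) in the 2 Stat6 KO and the 2 Th1 arrays, by chromosome as numbered in the files (x). Knockout replicate 2 stands apart on chromosome 20 at 0.18, against 0.03 in replicate 1 and 0.01 and -0.01 in Th1 cells.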

How the data were processed

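Per the labels' protocols, which describe adherent cells and other baits, HindIII and then Csp6I digestion, each followed by ligation, preceded inverse PCR from the bait. The product carried Cy5 and digested genomic DNA carried Cy3. Each deposited value is a probe's log2 ratio of these dyes. The base was taken as 2, and the authors' background correction and normalization are not given in the sources used here. Sorted values of the 2 arrays agree within 0.01 for nearly all probes in the knockout (99.9%), Th1 (100%) and naive (99.8%) pairs, but for 10.8% in the Th2 pair. The build was read from probe positions: mm8 had 0 of 21 chromosomes with a probe past its end. Bands came from circlize 0.4.16, symbols from RefSeq GRCm38.p6, and genes within 500 kb of a band edge were left out.

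The median of probes off chromosome 11 was subtracted from each array, without loess or quantile normalization, and probes were averaged in 500-kb bins that held 20 probes or more. Tests left out bins up to 1 Mb from the bait bin, and band values left out the probes there. limma 3.58.1 in R 4.3.3 was fitted to all 8 Il4 arrays, two-sided, with Benjamini-Hochberg adjustment over all bins or bands at 0.05, and tested on simulated data. Named bins are the 3 with the smallest p in each direction, windows and gene lists are given whole, and bins called between Th2 and Th1 are given with the knockout level. The arrays compared and the lists, windows and tests were chosen with earlier results of these data known. Alternatives covered bin size, centring, scaling, quantile normalization, probe filters, the bait exclusion, eBayes options, a replicate block and each array left out. Tables were made in Python 3.11.15 with pandas 2.3.3 and numpy 2.4.6, and figures in matplotlib 3.10.9.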

Additional observations from a re-analysis of the deposited data

How the results depend on the processing

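The count of bins called between Stat6 knockout and Th1 cells was 0 under most alternatives, 2 with trend and robust eBayes (both on the chromosome numbered 20, higher, adjusted p = 0.0108), and 6 with a crossed replicate block, an alternative chosen after seeing the data. Leaving out 1 array at a time gave 0 to 71 bins and 0 to 9 bands, the highest without Th1 replicate 1. The fit without Th1 replicate 1 leaves 1 Th1 array, the higher one. The bins it called lay almost all on chromosome 11 and were lower in the knockout. The bands it called all lay there too, with differences from -0.70 in 11qB2 to -0.27 in 11qD. The median difference over chromosome 11 ran from -0.26 without Th1 replicate 1 to 0.0055 without Th1 replicate 2, where its sign turned. There 5 of the 10 windows were lower, against 10 otherwise among the arrays left out. With the share of highest probes in place of levels, the median was -1.90 percentage points, and 3 windows, the 2 farthest toward the centromere and the one at the telomere, were above 0 by 0.30 to 0.66 points with intervals that held 0. The likeness of knockout and Th1 profiles was 0.797 in 200-kb bins and 0.913 in 1000-kb bins. The replicate numbers were not taken to pair the samples (r of deviations -0.13 between Th1 and knockout, and -0.38 to 0.37 over all pairs of groups). The fit with the labels' numbers as a replicate block called 0 bins and left each call between knockout and Th1 as it was, unlike the crossed block. With 2 arrays a group the median half-width of a 95% interval on chromosome 11 was 0.22, which limits what could be seen there.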

Other observations

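The knockout had 4 contact bins off chromosome 11, at chr4:32500001-33000000, chr4:134500001-135000000, chr8:84500001-85000000 and chr19:5500001-6000000. Th1 cells had 1, at chr13:51500001-52000000, and 0 were shared, out of 4788 bins off chromosome 11. The chr19 bin read 0.42 and 0.44 in the knockout arrays and 0.21 and 0.26 in the Th1 arrays. At chr4:134500001-135000000 the values were 0.51 and 0.44 against 0.29 and 0.30. At chr4:32500001-33000000 they were 0.42 and 0.22 against 0.22 and 0.22, so knockout replicate 2 lay at the Th1 level there.

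The chromosome numbered 20 read higher in the knockout. Of its 292 bins 280 were higher than in Th1 cells, 74 at an unadjusted p under 0.05 and 0 after limma's adjustment. The mean was 0.03 and 0.18 in the knockout arrays and 0.01 and -0.01 in the Th1 arrays, so knockout replicate 2 carried most of it, with 100% of its bins above 0 against 62.3% in replicate 1. Array batch, genotype and polarising condition cannot be told apart here either.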
